A study of Mus musculus with 10 samples.

Results

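Neutrophils sorted from Sox2low control squamous cell carcinomas were compared between tumours of mice given anti-PDL1 together with a CD40 agonist and tumours of untreated mice. These are 5 of the 10 RNA-seq libraries of the series, taken by their graft and treatment labels: 3 naive control libraries (untreated) and 2 treated control libraries. In both groups parental squamous cell carcinoma cells with low Sox2 had been grafted on CatchupIVM-red mice, in which a red reporter driven from the Ly6g locus marks neutrophils, and Tomato+ neutrophils were isolated from the tumours after they were established. The other 5 libraries come from tumours grown from Sox2Hi cells on the same kind of mouse (3 naive and 2 treated) and are used here for a shared estimate of the spread and for the test of whether the response differed between grafts. The deposited column names carry C57 for all 4 groups and GFP for the control graft, and no label explains these terms. Age, sex, dose and time after treatment are not given in the sources used here, and no label says whether libraries came from separate mice, so p-values measure only the spread between these libraries. The comparison asks how neutrophils inside tumours without raised Sox2 change their transcripts under the antibodies.

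PD-L1, encoded by Cd274, is a ligand on tumour and myeloid cells that restrains T cells through PD-1, and an agonist of CD40 activates antigen-presenting cells, which then make IL-12 and drive T cells to release interferon gamma. Interferons act through receptors and JAK kinases on STAT and IRF factors, which bind interferon-stimulated response elements and gamma-activated sites in promoters. Neutrophils answer with antiviral effectors, with the guanylate-binding proteins (Gbp) and immunity-related GTPases that attack membranes around intracellular microbes, and with antigen-presentation genes, while granule proteins are mostly made during their development in bone marrow and fall off in mature cells.

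The 10 libraries held between 13815734 and 22986193 estimated counts assigned to genes, and 11274 of 55385 genes passed a filter requiring 5 CPM (counts scaled to a common library size) averaged over all libraries. Levels below are CPM scaled by trimmed-mean (TMM) factors, which were 1.09 to 1.15 in the naive and 0.71 and 0.725 in the treated control libraries. tdTomato was read in each of the 5 control libraries, at 14.6, 8.8 and 11.9 CPM in the naive and 23.8 and 30.9 CPM in the treated ones. Sox2 was at 1.75, 2.02 and 2.18 CPM in the naive and 0.223 and 0.72 CPM in the treated libraries, below the minimum for testing. Ly6g, the neutrophil surface gene whose locus carries the reporter, was low, at 2.03, 3.26 and 1.62 CPM against 18.3 and 11.5 CPM. Ddx3y, a Y-linked gene, had 4 and 8 counts in naive and treated library 1, 3854 and 6618 in naive and treated library 2 and 1436 in naive library 3. Xist, the transcript of the inactive X, had 251 and 255 counts in the libraries numbered 1, 55 and 58 in those numbered 2 and 146 in naive library 3, so libraries 1 and 2 of each group differ in the sex transcripts they carry. Reads on 1464 odorant and pheromone receptor genes, which should be silent here, put an expected background at 5.68%, 8.37% and 5.02% of counts in the naive and 1.74% and 1.58% in the treated libraries, and Gm10800, a predicted gene in satellite-like sequence, took 9.12%, 7.58% and 8.78% of counts against 0.503% and 0.686%. Its part in the results below was not tested, apart from a fit with that background subtracted.

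Interferon-stimulated response elements are known in promoters of interferon-induced genes, and 4 promoters that hold the core are shown before the values to let its letters be seen. The core searched was GAAA followed, after any 2 bases, by a second GAAA, on either strand, in RefSeq promoter windows (GRCm38.p6) from 250 bases before to 50 after a gene's start. Of the 12 genes with the largest rises (named below), 6 had a window and 1 of these, Ifi206, held the core. Of the 8 lead genes of the interferon-stimulated and GTPase lists, 7 had a window and all 7 held it. Isg15, Gbp2 and Irgm1 were taken from those 7 after their values were seen. Capitals mark the core or its reverse complement, and each is read 5′ to 3′ along the gene. Ifi206 (chr1:173491269-173491568, minus strand) has it 40 bases before the start. Isg15 (chr4:156200769-156201068, minus strand) has 3 overlapping copies that begin 78, 72 and 66 bases before the start. Gbp2 (chr3:142620413-142620712, plus strand) has it 59 bases before the start, and Irgm1 (chr11:48871371-48871670, minus strand) has 2 overlapping copies at 30 and 24 bases before the start.
Ifi206: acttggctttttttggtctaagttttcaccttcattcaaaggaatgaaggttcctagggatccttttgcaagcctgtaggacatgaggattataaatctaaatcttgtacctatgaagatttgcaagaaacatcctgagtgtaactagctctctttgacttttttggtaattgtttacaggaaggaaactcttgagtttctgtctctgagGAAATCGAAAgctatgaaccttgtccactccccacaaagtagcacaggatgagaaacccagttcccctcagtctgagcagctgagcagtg
Isg15: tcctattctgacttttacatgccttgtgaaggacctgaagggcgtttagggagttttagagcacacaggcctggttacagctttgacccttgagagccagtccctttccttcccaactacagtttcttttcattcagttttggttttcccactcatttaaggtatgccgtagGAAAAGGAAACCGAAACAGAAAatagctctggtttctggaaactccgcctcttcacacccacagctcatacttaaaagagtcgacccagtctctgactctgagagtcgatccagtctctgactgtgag
Gbp2: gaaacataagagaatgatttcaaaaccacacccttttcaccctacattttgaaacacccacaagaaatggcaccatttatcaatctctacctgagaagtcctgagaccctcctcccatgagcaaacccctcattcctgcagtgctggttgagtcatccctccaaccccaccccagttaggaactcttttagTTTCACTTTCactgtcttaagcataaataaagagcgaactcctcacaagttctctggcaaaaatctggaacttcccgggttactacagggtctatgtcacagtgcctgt
Irgm1: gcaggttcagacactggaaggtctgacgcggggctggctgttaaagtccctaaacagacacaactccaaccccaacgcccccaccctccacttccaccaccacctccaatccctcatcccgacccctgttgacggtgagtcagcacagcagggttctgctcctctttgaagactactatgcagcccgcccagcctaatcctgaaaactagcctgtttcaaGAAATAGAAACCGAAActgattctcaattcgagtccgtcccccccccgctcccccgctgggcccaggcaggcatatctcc

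Across the genes that rose by more than 2-fold and had a window (388 genes, 489 windows), 11.7% of windows held the interferon core, against 3.67% of the 10376 windows of all tested genes and 3.44% of all 32851 windows. The gamma-activated site TTCNNNGAA stood in 12.3% of the risers' windows and in 7.22% of those of tested genes. The NF-kB motif GGANTTTCC stood in 3.68% against 1.5%. The E2F motif TTTCCCGC, found at cell-cycle genes, stood in 1.02% against 1.99%, and the hypoxia element ACGTG in 22.1% against 24.9%. Among the 81 windows of genes that fell by more than 2-fold, 3.7% held the interferon core. All motifs were searched on both strands, matches to different motifs may overlap, and a match is a description of letters, not of binding. The core was in none of the searched windows of Ngp, Serpina3f, Stfa1, Ly6c2 and Car4.

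The response was wide. At an edgeR adjusted p under 0.05, 3231 of 11274 genes were higher in treated libraries (28.7%) and 3137 were lower (27.8%), 56.5% in all, and the naive and treated libraries did not overlap for 7583 genes. The median log2 fold change over all tested genes was −0.05, with an interquartile range from −0.69 to 0.61. The balance of higher against lower calls depended on scaling: 50.7% of calls were higher with TMM factors from the tested genes, 76.3% with TMM factors from the wider set kept by edgeR's default filter (median 0.36) and 16.8% with library totals alone (median −0.69). Changes are therefore read against the median of all genes, and a shift of the whole table by such an amount moves each gene by the same amount.

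A stricter test asked for a change of more than 2-fold. It called 534 genes higher (4.74%) and 117 lower (1.04%), and the higher calls held fold changes above 16-fold (4 on the log2 scale) for 21 genes. Without naive library 1 the risers were 297, without naive library 3 311, without treated library 1 275 and without treated library 2 341. The fallers numbered 326 without naive library 3, 73 without treated library 2 and 176 with the title number as a replicate block. The libraries overlapped for 3 of the 534 risers and for none of the 117 fallers, while 7583 of all 11274 tested genes did not overlap. The test itself favours genes whose groups stand apart, so no support is drawn from these counts. Of the risers, 474 were protein coding, and 165 belonged to one of the 29 pathway lists described below, while 359 were in no list. Of the fallers 107 were in no list, 36 had over 20% of their reads at the expected background, and 69 had a treated mean under 5 CPM, as did 1609 of all 11274 tested genes. Of the risers 43 had a naive mean under 5 CPM, as did 303 of all tested genes. With library totals alone the strict calls were 223 higher and 2106 lower.

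Fold changes differed between classes of abundance, which were set by a mean that includes the treated libraries, so a gene that rose moved toward a higher class. The larger background of the naive libraries also weighs most on scarce genes, and its part was not tested. Genes with a mean under 10 CPM had a median log2 fold change of −0.54, those from 100 to 300 CPM 0.56, and the 151 genes at 1000 CPM or more 1.25, with 29.8% of the last rising by more than 2-fold. Ubb, a polyubiquitin gene, made up 1.95%, 2.31% and 1.98% of naive and 3.49% and 4.02% of treated counts. Fth1, the ferritin heavy chain that stores iron, went from 0.554%, 0.586% and 0.412% to 1.28% and 1.45%. B2m, the light chain of MHC class I, went from 0.41%, 0.422% and 0.435% to 0.846% and 0.969%. Wfdc17, a small secreted protein of activated myeloid cells, was at 0.178%, 0.132% and 0.107% in naive and at 0.865% and 0.748% in treated libraries. Actb, cytoplasmic actin, went the other way in its share, from 0.906%, 1.05% and 1.04% to 0.777% and 0.718%. Il1r2, a decoy receptor for IL-1, overlapped in its share at 1.19%, 1.57% and 0.979% against 1.12% and 1.43%. These shares are taken before TMM scaling, whose factors were 1.09 to 1.15 in naive and 0.71 and 0.725 in treated libraries. After that scaling Actb stood higher in both treated libraries, and the Il1r2 groups did not overlap.

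**Figure D1:**
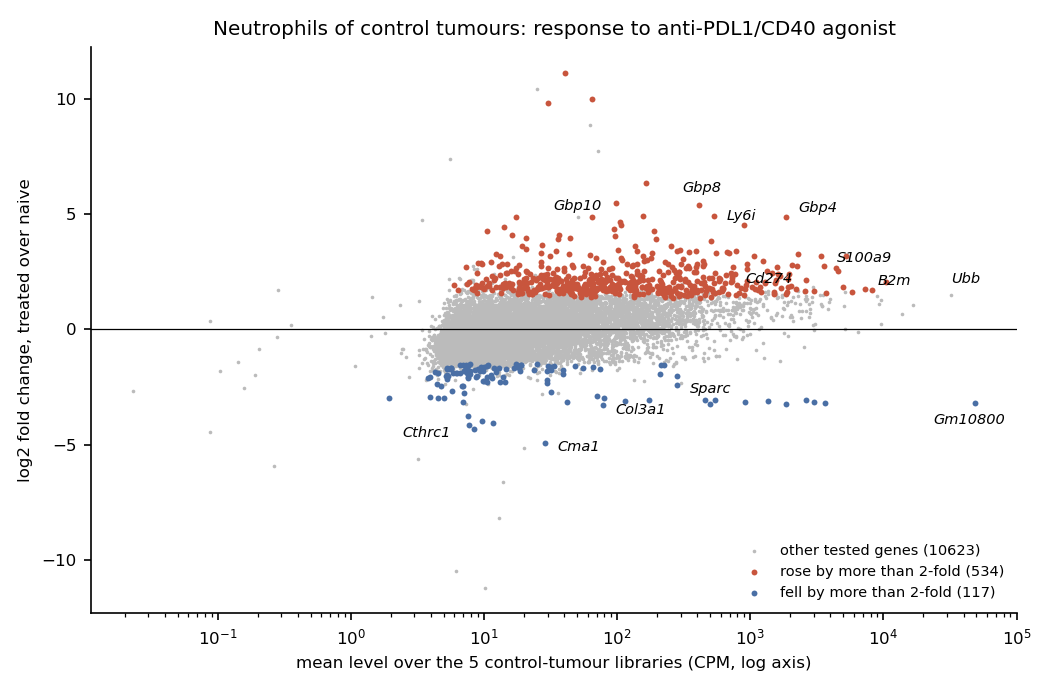
Log2 fold change of treated over naive control-tumour neutrophils (y axis) against mean level in CPM on a log axis (x axis), 1 point per tested gene. The 534 genes that rose by more than 2-fold are red and the 117 that fell are blue; the risers extend to the most abundant genes, and Gm10800 is the most abundant faller.

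The 12 largest rises were in 4 GTPases, 2 Ly6 proteins, 3 protease inhibitors, a granule protein, a DNA-binding protein and a carbonic anhydrase, taken where the mean over the control libraries reached 20 CPM, with no overlap between groups, and no predicted, Rik or immunoglobulin segment name. Gbp10 was at 5.13, 6.78 and 4.32 CPM in naive and 284 and 192 CPM in treated libraries, a log2 rise of 5.46 ± 0.30 (SE; edgeR adjusted p = 5.2e-06). Gbp8 went from 20.5, 31.5 and 18.2 to 1135 and 861 CPM, and Gbp4 from 101, 198 and 147 to 4619 and 4201 CPM. The treated libraries were above all naive ones for these 3 genes. Gbp6 rose by 4.53 ± 0.24 on the log2 scale, from 68.1, 96.1 and 108 to 2470 and 1726 CPM.

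Ly6i and Ly6c2, membrane proteins of the Ly6 family that is prominent on myeloid cells, rose by 4.92 ± 0.32 and 4.26 ± 0.32 on the log2 scale. Ly6i was at 34.7, 58.5 and 32.2 CPM in naive and 1462 and 1070 CPM in treated libraries. Ly6c2, a gene also used to mark monocytes, was at 25.6, 27.7 and 15.3 against 513 and 360 CPM. Ngp, a secondary granule protein made by developing neutrophils, went from 7.04, 21.2 and 9.14 to 371 and 378 CPM (log2 rise 4.92 ± 1.07, edgeR adjusted p = 0.0031), with the widest error of the 12. Serpina3f, a serine protease inhibitor, went from 5.41, 6.13 and 4.32 to 190 and 121 CPM. Stfa1 and BC100530, cysteine protease inhibitors of the stefin A group, rose by 4.37 ± 0.37 and 4.54 ± 0.52. Ifi206, a DNA-binding p200 protein whose promoter is shown above, went from 8.68, 11.9 and 8.63 to 317 and 178 CPM. Car4, a carbonic anhydrase, went from 7.72, 2.93 and 4.06 to 106 and 64 CPM. The groups stand apart for all 12 because the choice of genes required it. Several of these genes have near-identical neighbours (Gbp, stefin, Ly6), among which estimated counts may be split.

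Matrix, mast cell and red-cell genes made up 9 of the 12 largest falls chosen by the same rule. The 3 globin genes and Nrep among the 12 did not pass the test for more than 2-fold, and of the 117 genes that did, 9 were in a marker list. Cma1, a mast cell chymase, went from 80.3, 12 and 48.7 CPM to 0.595 and 2.4 CPM (log2 change −4.92 ± 0.91, edgeR adjusted p = 0.0014). Col3a1, a fibrillar collagen of connective tissue, went from 121, 69.8 and 177 to 9.75 and 15.1 CPM. Col1a1, Col1a2, Lum and Sparc, all matrix genes, changed by −2.97, −2.87, −3.16 and −2.40 on the log2 scale. The globin genes Hba-a1, Hba-a2 and Hbb-bs of red cells changed by −2.21 to −2.31 with errors of 0.67 to 0.78, and treated library 2 held 12.5 to 26.2 CPM of each against 71 to 154 CPM in treated library 1. Gchfr, a regulator of tetrahydrobiopterin synthesis, went from 54.3, 36.4 and 53.6 to 6.92 and 7.86 CPM. Pbk, a mitotic kinase, went from 47.4, 33 and 49.4 to 9.68 and 9.37 CPM, and Nrep, a gene of neural and regenerating tissue, from 36.6, 17.4 and 70.3 to 7.89 and 3.96 CPM. As for the risers, a lack of overlap was a condition of the choice.

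**Figure D2:**
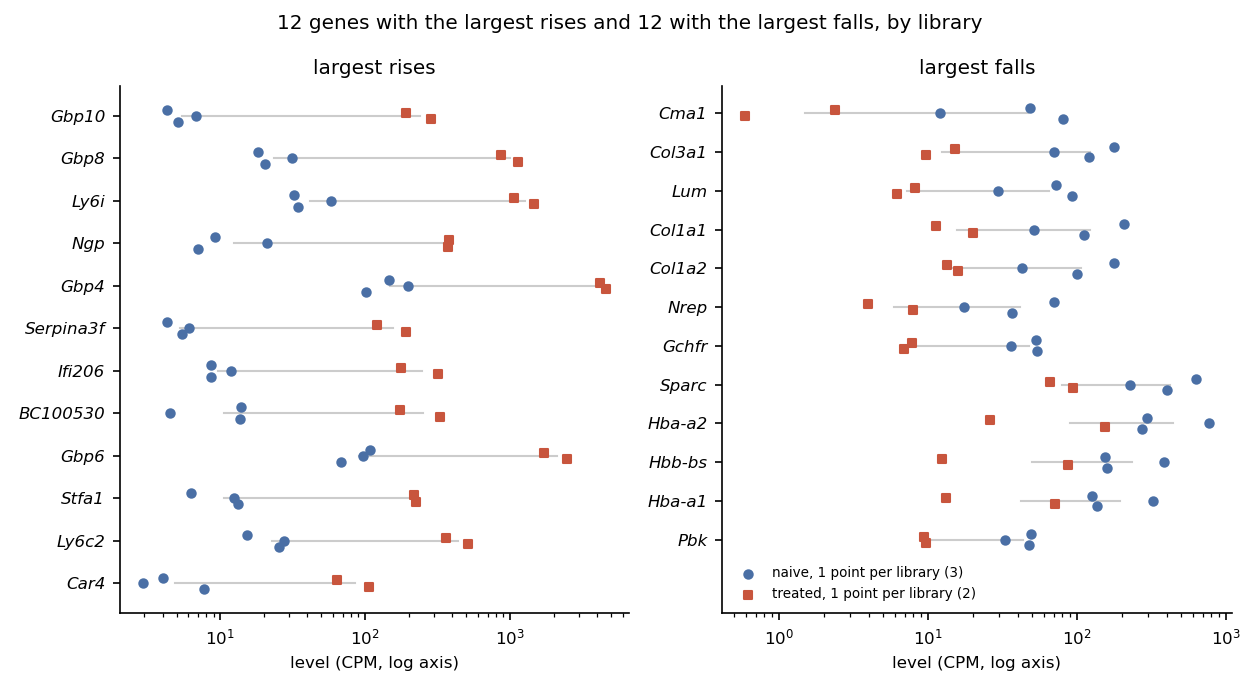
Level in CPM on log axes of the 12 genes with the largest rises (left) and the 12 with the largest falls (right), 1 point per library, circles for the 3 naive and squares for the 2 treated control libraries; the grey line joins the group means. The genes were chosen by the size of their change and for groups that do not overlap, so no support is drawn from the distances between groups. The levels and the spread within groups are shown, and 26.2 and 154 CPM of Hba-a2 stand in the 2 treated libraries.

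Markers of some other cells moved as well. Sums run over all matched members of a list, and counts over those tested. Over all tested genes 28.7% were called higher and 27.8% lower. The summed level of 20 neutrophil markers was 18182, 22043 and 13485 CPM in naive and 48729 and 45756 CPM in treated libraries, and all 20 were called higher. S100a8 and S100a9, the calprotectin subunits that fill neutrophil cytosol, rose by 2.54 ± 0.31 and 2.74 ± 0.29 on the log2 scale, S100a9 from 1284, 1171 and 835 to 8129 and 6571 CPM. Fibroblast markers summed to 1189, 698 and 1739 CPM in naive and 318 and 283 CPM in treated libraries, with 12 of 14 tested markers called lower and none at 0 in the 5 libraries. Keratinocyte markers, which the tumour cells also express, summed to 3292, 2296 and 4773 against 2532 and 1413 CPM, with 7 of 18 lower and the groups overlapping. Krt14, a basal keratin, was at 430, 191 and 706 against 447 and 185 CPM. Without treated library 1 11 keratinocyte markers were called lower, and without treated library 2 4. In bulk libraries a smaller share of cells of a type and less RNA per cell cannot be told apart.

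Red-cell markers summed to 579, 1497 and 592 against 321 and 53.4 CPM, with 3 of 4 lower (none without naive library 2 or without treated library 2), and mast cell markers to 254, 48.2 and 163 against 11.8 and 61.8 CPM, with 3 of 4 lower (2 without naive library 1 or without treated library 1). T and NK cell markers summed to 87.6, 142 and 98.1 CPM in naive and 215 and 701 CPM in treated libraries, with 6 of 10 higher, and 3 of 10 without treated library 2. Nkg7, a protein of cytotoxic granules, was at 13.4, 21.3 and 17 against 62.8 and 235 CPM, while Cd3e was at 1.52, 4.37 and 2.49 against 2.46 and 8.35 CPM and was too low to test. B and plasma cell markers summed to 350, 459 and 212 against 514 and 1707 CPM, with 3 of 11 higher and 1 lower; these were 1 and 1 without treated library 2, 3 and 0 without treated library 1, 5 and 2 without Sox2Hi naive library 2, and 1 and 0 by limma-voom. Iglc2, a light chain constant region, was at 0.521 CPM in treated library 1 and at 354 CPM in treated library 2. Igkv4-61, a light chain segment, passed the 2-fold test with 203 CPM in treated library 1 and 0 in treated library 2. Macrophage and monocyte markers summed to 1038, 1230 and 840 against 2072 and 1435 CPM, with 7 of 16 higher; C1qa, a complement gene of macrophages, was at 18.5, 22.3 and 16.3 against 35.1 and 13.9 CPM and did not pass. Dendritic cell markers summed to 99.7, 141 and 120 against 163 and 204 CPM, with 2 of 7 higher and 2 lower (1 and 1 without treated library 2), and endothelial markers to 73.9, 74.6 and 68 against 60 and 45.6 CPM, with 1 of 3 lower. The dendritic counts, the endothelial count and the 3 of 11 higher B and plasma cell markers are near the shares of all genes (28.7% higher and 27.8% lower). No shift is read from them. No marker of any of these lists was at 0 counts in all 5 libraries. The part of these cells in the gene groups below was not tested.

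**Figure D3:**
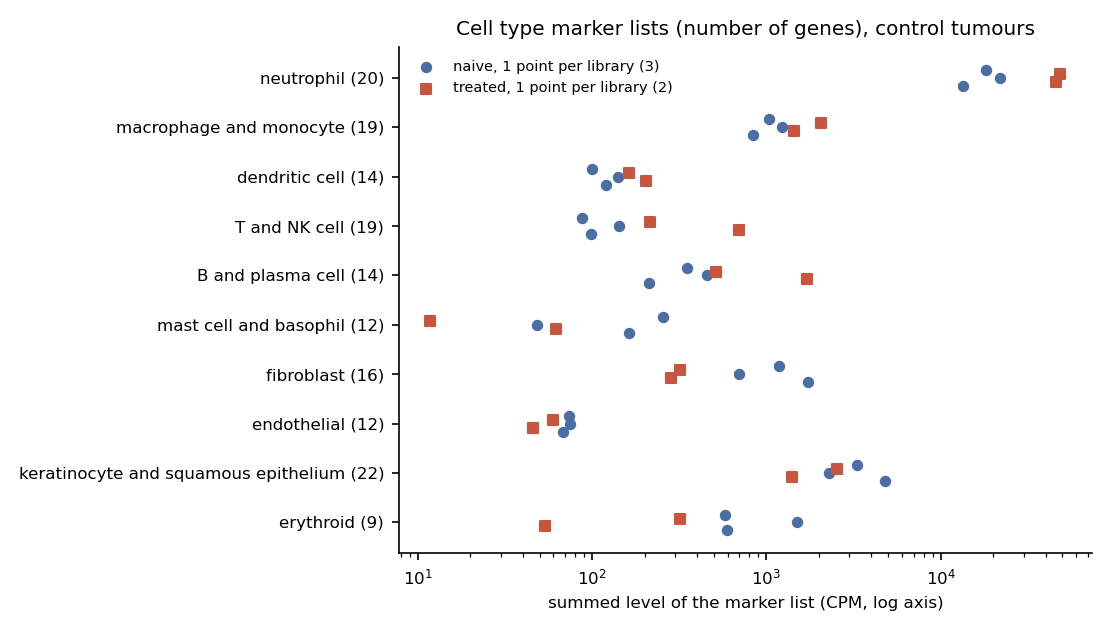
Summed level in CPM on a log axis of 10 lists of cell type markers, 1 point per control library, circles for naive and squares for treated. Neutrophil markers stand highest in the treated libraries at 48729 and 45756 CPM, fibroblast markers are lower in both treated libraries, and T and NK markers reach 701 CPM in treated library 2.

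Gene lists were read by their counts and medians beside those of all genes. In the list of type I interferon-stimulated genes 52 of 55 tested members were called higher and none lower, against 28.7% and 27.8% of all genes, with a median log2 fold change of 1.64. Ifitm6, a membrane protein, led the list at 3.00 ± 0.33 and went from 55.9, 43.9 and 33.9 to 424 and 287 CPM. Isg15, a ubiquitin-like modifier, went from 541, 885 and 520 to 2650 and 3157 CPM (log2 rise 2.16 ± 0.27, edgeR adjusted p = 0.00022). Rsad2, the antiviral enzyme viperin, went from 201, 313 and 220 to 1164 and 1046 CPM. Ifit1, which binds viral RNA caps, rose by 1.5 ± 0.26 and did not pass the test for more than 2-fold. Mx1, an antiviral GTPase, was at 7.61, 8.15 and 5.69 against 8.63 and 8.17 CPM and did not pass (adjusted p = 0.42); many laboratory strains carry a defective Mx1. The other 2 that did not pass were Eif2ak2 (−0.02), the RNA-sensing kinase PKR, and Pnpt1 (−0.07), an RNA-degrading enzyme. The count was 48 to 52 when any 1 library was left out, and 45 with library totals alone, where 2 members were called lower.

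Of the interferon gamma GTPases, 20 of 20 tested were called higher and 18 by more than 2-fold, with a median of 2.70. The 2-fold count was 15 to 18 when any 1 library was left out. Gbp2, whose promoter is shown above, went from 1054, 1960 and 1220 to 9549 and 8375 CPM and was by level the main member. Irgm1, an immunity-related GTPase that regulates the others, went from 432, 665 and 474 to 3169 and 2578 CPM (log2 rise 2.46 ± 0.23). Igtp rose by 2.31 ± 0.26, and Gbp5, which assembles inflammasomes, by 1.75 ± 0.28, from 16.3, 23.7 and 16.3 to 77.3 and 49 CPM. The smallest rise of the list was 1.28. Summed over the list, naive libraries held 4323, 7368 and 5327 CPM and treated ones 45545 and 39467 CPM.

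The interferon signalling chain itself also moved. In the list of receptors, JAK kinases, STAT, IRF and SOCS genes 21 of 27 were higher and none lower, with a median of 1.08. Irf7 rose by 2.06 ± 0.29 and Irf1 by 1.69 ± 0.26; Irf1 was at 280 CPM in treated library 1 and 148 CPM in treated library 2, both above the naive 55.3, 75.2 and 67.7 CPM. Batf2, an interferon gamma-induced transcription factor, led with 3.28 ± 0.31, from 2.2, 2.61 and 3.4 to 35.7 and 17.8 CPM. Socs1, the feedback inhibitor, was at 3.16, 4.17 and 3.1 against 10.3 and 5.16 CPM, too low to test. With library totals alone 12 members were higher and 2 lower.

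Neighbouring genes rose together. Runs of at least 4 neighbouring genes that each rose by more than 2-fold lay on chromosome 1 (Ifi213 to Ifi204, 5 genes, 2.00 to 3.26 on the log2 scale), on chromosome 5 (Gbp8 to Gbp6, 5 of 6 coding genes in the span, 3.33 to 5.46), on chromosome 7 (Trim12a to Trim30a, 5 of 6, 1.77 to 2.80) and on chromosome 11 (Irgm1 to Psme2b, 4 of 5, 1.6 to 2.46, and Tgtp1 to Ifi47, 4 genes, 1.79 to 3.20). On chromosome 16 the stefin A cluster held 7 risers among 8 coding genes, from 3.41 to 6.33. Most of these runs hold families of duplicated genes (Gbp, Ifi, Trim, Tgtp and stefin A), among whose copies reads can be shared; Psme2b, named for a proteasome activator, is no copy of Irgm1. The single run of fallers was 9 predicted genes on chromosome 9, from −3.25 to −3.04, which moved with Gm10800 (−3.20).

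Antigen presentation by MHC class I rose: 19 of 23 members were higher and none lower, with a median of 1.54. H2-K1, a classical heavy chain, went from 472, 589 and 615 to 2063 and 1701 CPM (log2 rise 1.75 ± 0.18). B2m went from 3765, 3804 and 3771 to 11918 and 13369 CPM. H2-Q6, a non-classical heavy chain close in sequence to H2-Q7, led at 3.40 ± 0.22. Psmb8, an interferon-inducible proteasome subunit, rose by 1.49 ± 0.17, and Tap1, the peptide transporter, by 1.55 ± 0.23. Of the constitutive proteasome 4 of 36 were higher and 3 lower, with a median of 0.14; Psmb5, the subunit that Psmb8 replaces in the immunoproteasome, was at 45.4, 36.2 and 51.6 against 52.7 and 57.2 CPM (log2 change 0.31, adjusted p = 0.13). With library totals the medians were −0.50 for the constitutive and 0.90 for the class I list, as that scaling lowers all genes alike. The constitutive counts were then 1 higher and 20 lower, and with the wider TMM set 18 higher and 0 lower; leaving out 1 library gave 2 to 4 higher and 0 to 5 lower.

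In MHC class II presentation 9 of 12 were higher and none lower, with a median of 1.12. The count was 5 without naive library 1, 5 without naive library 3, 4 without treated library 2 and 4 with library totals. Cd74, the invariant chain, went from 5515, 7618 and 5003 to 14173 and 15329 CPM (log2 rise 1.29 ± 0.35, edgeR adjusted p = 0.0093), and H2-Aa, a class II chain, from 620, 757 and 616 to 1404 and 1565 CPM. March1, a ubiquitin ligase that removes class II from the surface, led with 2.25 ± 0.24. Ciita, the class II master regulator, was at 7.89, 9.78 and 8.22 against 11 and 8.59 CPM, with 31.4% of its reads at the expected background, and did not pass. The sum of dendritic cell markers in the treated libraries was 1.53 times its naive mean, but the list was mixed, with 2 of 7 called higher and 2 lower.

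The genes encoding the targets of the antibodies both rose. Cd274 went from 214, 271 and 200 to 1777 and 1251 CPM (log2 rise 2.73 ± 0.23, edgeR adjusted p = 3.6e-05). Cd40 went from 11.3, 14.9 and 11 to 47 and 42.1 CPM (1.85 ± 0.24). Pdcd1lg2, which encodes the second ligand of PD-1, went from 13.6, 13.8 and 11.2 to 55 and 62 CPM. In the list of checkpoint ligands, CD40 and costimulation 19 of 27 were higher and 1 lower, with a median of 1.14. Il12a, a subunit of IL-12, led with 3.39 ± 0.22, from 6.99, 8.15 and 6.6 to 73 and 78.8 CPM. Cd86, a costimulatory ligand of T cells, went from 119, 165 and 90.9 to 332 and 510 CPM, a call lost without treated library 2 (adjusted p = 0.082). Tgfb1, a suppressive cytokine, was the member called lower (−0.79 ± 0.25), at 9.98, 12.3 and 6.96 against 5.51 and 5.76 CPM.

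Chemokine genes split. Cxcl10 and Cxcl9, interferon-induced attractants of T cells, rose by 2.61 ± 0.27 and 1.71 ± 0.32, Cxcl10 from 23.6, 33.6 and 27.9 to 204 and 143 CPM. Cxcl2, an attractant of neutrophils, went from 2331, 1960 and 1555 to 4986 and 5895 CPM, and its receptor Cxcr2 from 263, 281 and 167 to 609 and 405 CPM. Cxcl14, which epithelium makes, fell by 1.98 on the log2 scale. In all 8 of 18 CXC genes were higher and 3 lower, with a median of 0.37. Library totals gave 5 higher and 5 lower (median −0.27) and the wider TMM set 9 and 1; 5 were higher without treated library 2. Of the CC genes 11 of 16 were higher and none lower, with a median of 1.22. Ccl5, an attractant of T cells that T and NK cells also make and whose rise ran beside that of their markers, led with 3.17 ± 0.44 and was at 33.8, 47.1 and 30.9 against 233 and 436 CPM. Ccl3 and Ccl4, macrophage inflammatory proteins, rose by 1.85 ± 0.34 and 1.69 ± 0.37, and Ccr1, a receptor for Ccl3, went from 2602, 3027 and 1917 to 6053 and 6362 CPM.

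Inflammatory signalling genes rose. Of 30 NF-kB subunits, targets and feedback genes 28 were higher and none lower, with a median of 1.23. Tnf went from 67.5, 69 and 44.6 to 237 and 187 CPM (log2 rise 1.81 ± 0.29). Nfkbia and Tnfaip3, feedback inhibitors of the pathway, rose by 1.40 ± 0.22 and 1.70 ± 0.17, and Sod2, a mitochondrial antioxidant enzyme, led with 2.38 ± 0.26. With library totals 17 of the 30 were higher. Of the IL-1 family and inflammasome genes 15 of 19 were higher and 1, Il1r1, lower, a call lost in 9 alternatives. Il1b went from 2400, 1984 and 1472 to 4815 and 3969 CPM, and Il1rn, its antagonist, from 1907, 1892 and 1333 to 3742 and 4194 CPM. Pycard, the inflammasome adaptor, led with 2.68 ± 0.29. Nlrp3, its best-known sensor, was at 110, 116 and 68.6 against 159 and 130 CPM and did not pass (edgeR adjusted p = 0.086). It was called higher with the wider TMM set, with a minimum of 1 CPM and with the description number as a replicate block (log2 change 0.68).

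Pattern receptors rose in 23 of 24 cases, with a median of 1.51. Tlr2 went from 96.8, 127 and 80 to 420 and 361 CPM, and Tlr4, the receptor for lipopolysaccharide, from 38.1, 45.8 and 25.5 to 136 and 101 CPM. Clec4e, a lectin receptor for damaged cells and mycobacteria, went from 1815, 1780 and 1226 to 4968 and 5303 CPM. Nod1, a cytosolic sensor of bacterial peptides, led with 3.08 ± 0.29. Tlr3 fell by 0.86 ± 0.21 on the log2 scale, with 22.1% of its reads at the expected background. Of the Fc and complement receptors 13 of 20 were higher and none lower, with a median of 1.17. Fcgr4, an activating receptor for antibody, went from 124, 196 and 102 to 613 and 589 CPM. Fcgr2b, the inhibitory one, went from 230, 193 and 141 to 358 and 354 CPM (0.92 ± 0.31), a call lost in 11 alternatives, among them limma-voom and leaving out either treated library, and Fcgr1 rose by 1.39 ± 0.28.

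Granule protein genes rose in 20 of 21 cases, with a median of 2.03, and the count was 17 to 20 when any 1 library was left out. Camp, the cathelicidin of secondary granules, went from 1.24, 6.19 and 1.78 to 28.2 and 65.7 CPM (log2 rise 3.96 ± 0.88, edgeR adjusted p = 0.0036). Ltf, lactoferrin, went from 21.8, 28.8 and 17 to 69.4 and 93.1 CPM, and Mmp9, a gelatinase of tertiary granules, from 50.2, 62.8 and 36.7 to 166 and 110 CPM. Cybb, the catalytic subunit of the NADPH oxidase, went from 205, 251 and 130 to 1012 and 1111 CPM. Of the granulopoiesis transcription factors 11 of 16 were higher and 2 lower, but 5 were higher without treated library 2. Spi1, the factor PU.1, went from 25.1, 52.1 and 33.3 to 175 and 89.6 CPM, and Cebpe, which drives secondary granule genes, from 3.89, 10.8 and 7.21 to 19.6 and 22.5 CPM, a call lost without treated library 2 (adjusted p = 0.057). Cebpb had a log2 change of 0.59 ± 0.22, a call lost in 14 alternatives, and was at −0.05 with library totals. Of the NADPH oxidase and redox genes 18 of 23 were higher and 1, Sod1, lower; Hmox1, which degrades haem, led with 2.93 ± 0.35, from 22.1, 22.6 and 19.5 to 176 and 151 CPM. Ncf1 rose by 1.65 ± 0.27.

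Receptors for trafficking and survival rose in 23 of 30 cases, with a median of 1.18. Fas, a death receptor, led with 2.29 ± 0.25. Csf3r, the receptor for the growth factor G-CSF, went from 80.8, 117 and 71.7 to 326 and 189 CPM, Itgam rose by 1.32 ± 0.21, and Mcl1, which prolongs neutrophil life, by 0.89 ± 0.20. Of genes described in tumour-conditioned neutrophils 25 of 34 were higher and 2 lower. Stfa2 led with 4.90 ± 0.35. Siglecf, a lectin that marks neutrophils of some tumours, was at 7.55, 16.4 and 7.26 against 5.95 and 8.65 CPM and did not pass. Vegfa, the vessel growth factor, was at 35.8, 29.3 and 27.1 against 20.7 and 25.6 CPM and did not pass (edgeR adjusted p = 0.082). Some alternatives called it lower, among them limma-voom, the fit with the background subtracted and library totals, where the log2 change was −1.04.

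Metabolic genes moved unevenly. Of 30 hypoxia and glycolysis genes 27 were higher and none lower, with a median of 1.29. Ldha, which makes lactate, went from 180, 125 and 195 to 406 and 344 CPM, and Hk2, a hexokinase, from 103, 94.3 and 114 to 231 and 231 CPM. Ankrd37, a hypoxia-induced gene, led with 2.77 ± 0.28, and Slc2a1, a glucose carrier, rose by 1.11 ± 0.19. Of 44 lysosome and V-ATPase genes 36 were higher and none lower, with a median of 1.01 (22 higher and 5 lower with library totals). Atp6v0d2, a proton pump subunit, led with 2.50 ± 0.41, and the cathepsin genes Ctsb and Ctsd rose by 1.39 ± 0.23 and 1.32 ± 0.22. Acod1, which makes itaconate, went from 649, 680 and 407 to 2334 and 1852 CPM. Of the arginine, tryptophan and itaconate genes 6 of 11 were higher. Nos2, nitric oxide synthase, was at 1.35, 2.35 and 1.62 against 22.7 and 11 CPM but fell below the minimum mean over the 10 libraries and was not tested.

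Housekeeping groups had medians near that of all genes, so their calls followed the scaling. Oxidative phosphorylation had 24 of 75 genes higher and none lower, with a median of 0.19. Library totals gave 1 higher and 35 lower (median −0.45) and the wider TMM set 40 higher and 0 lower; the higher count was 5 without treated library 2, 10 without naive library 3 and 11 without naive library 1. Cox4i1 was at 289, 230 and 300 against 293 and 352 CPM. Of 13 mitochondrially encoded genes none passed in either direction, also by limma-voom, while DESeq2 called 1 higher, library totals 4 lower (median −0.59), the wider TMM set 4 higher (median 0.44) and the fit without treated library 1 1 lower (median −0.51); mt-Co1 was at 2570, 1648 and 2782 against 4206 and 2529 CPM. Of 77 cytosolic ribosomal protein genes 2 were higher and 8 lower, with a median of −0.15; the lower count was 27 without naive library 2, 5 without naive library 1 and 2 without treated library 1, and the counts became 0 higher and 62 lower with library totals (median −0.79) and 13 higher and 0 lower with the wider TMM set (median 0.26). Rps6 was at 422, 298 and 455 against 327 and 411 CPM. Stress genes were split, with 14 of 32 higher and 2 lower. Leaving out 1 library gave 8 to 14 higher (8 without naive library 1) and 2 to 6 lower (6 without naive library 2), and library totals gave 3 higher and 14 lower. Ddit3, the stress factor CHOP, led with 2.16 ± 0.17, from 75.2, 62.4 and 59 to 296 and 289 CPM, while Hspa5, the chaperone BiP, had a change of 0.49 ± 0.17, a call lost in 14 alternatives, among them the 5 control libraries alone and leaving out either treated library, and was at −0.14 with library totals. Of the immediate early genes 9 of 27 were higher and 0 lower (3 and 7 with library totals, 16 and 0 with the wider TMM set). Their median of 0.32 ran from 0.02 to 0.49 when 1 library was left out. Fos, Jun and Egr1 did not pass, and Klf6 led with 1.56 ± 0.18. With the wider TMM set Fos and Egr1 passed, and Fos also passed with the title number as a replicate block (log2 change 0.5).

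Cell-cycle genes fell. Of 54 members 38 were lower and 3 higher, with a median of −0.96, and the lower count was 27 to 40 when any 1 library was left out and 15 with the wider TMM set, whose median was −0.56. Top2a, a topoisomerase of dividing cells, went from 90.7, 56.9 and 98.9 to 44.7 and 30.7 CPM (log2 change −1.13 ± 0.25, edgeR adjusted p = 0.0034). Mcm5, of the replication helicase, went from 10.3, 9.19 and 11.3 to 3.72 and 3.78 CPM, and Aurkb, a mitotic kinase, changed by −1.49 ± 0.38, a call lost without treated library 2 (adjusted p = 0.05). Mki67 was at 34.5, 25 and 33.3 against 24.1 and 35.6 CPM and did not pass. Hmgb2, a chromatin protein, rose by 1.58 ± 0.15, from 129, 117 and 116 to 394 and 327 CPM; the other 2 that rose were Pole, a DNA polymerase (1.39), and Cdkn1a, an inhibitor of cell division (1.08). The summed level of the list was 3522, 2882 and 3760 CPM in naive and 3323 and 3445 CPM in treated libraries, so the groups overlapped. Fibroblast markers, at 0.249 times their naive sum, moved in the direction of the members that were lower; their part was not tested. Of the cholesterol synthesis and export genes 10 of 25 were lower and 6 higher (15 and 3 with library totals, 4 and 10 with the wider TMM set). Sqle and Hmgcs1, enzymes of cholesterol synthesis, changed by −1.58 ± 0.39 and −0.99 ± 0.34, while Abcg1, a cholesterol exporter, went from 432, 506 and 365 to 1527 and 1449 CPM. Of the eicosanoid genes 4 of 15 were higher and 2 lower (2 and 7 with library totals, 8 and 0 with the wider TMM set, and 1 to 4 lower when 1 library was left out); Alox5ap, needed for leukotriene synthesis, rose by 1.80 ± 0.24, Ptgs2, the inducible cyclooxygenase, by 0.91 ± 0.21, and Alox15, a lipoxygenase of other myeloid cells, changed by −1.45 ± 0.44.

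**Figure D4:**
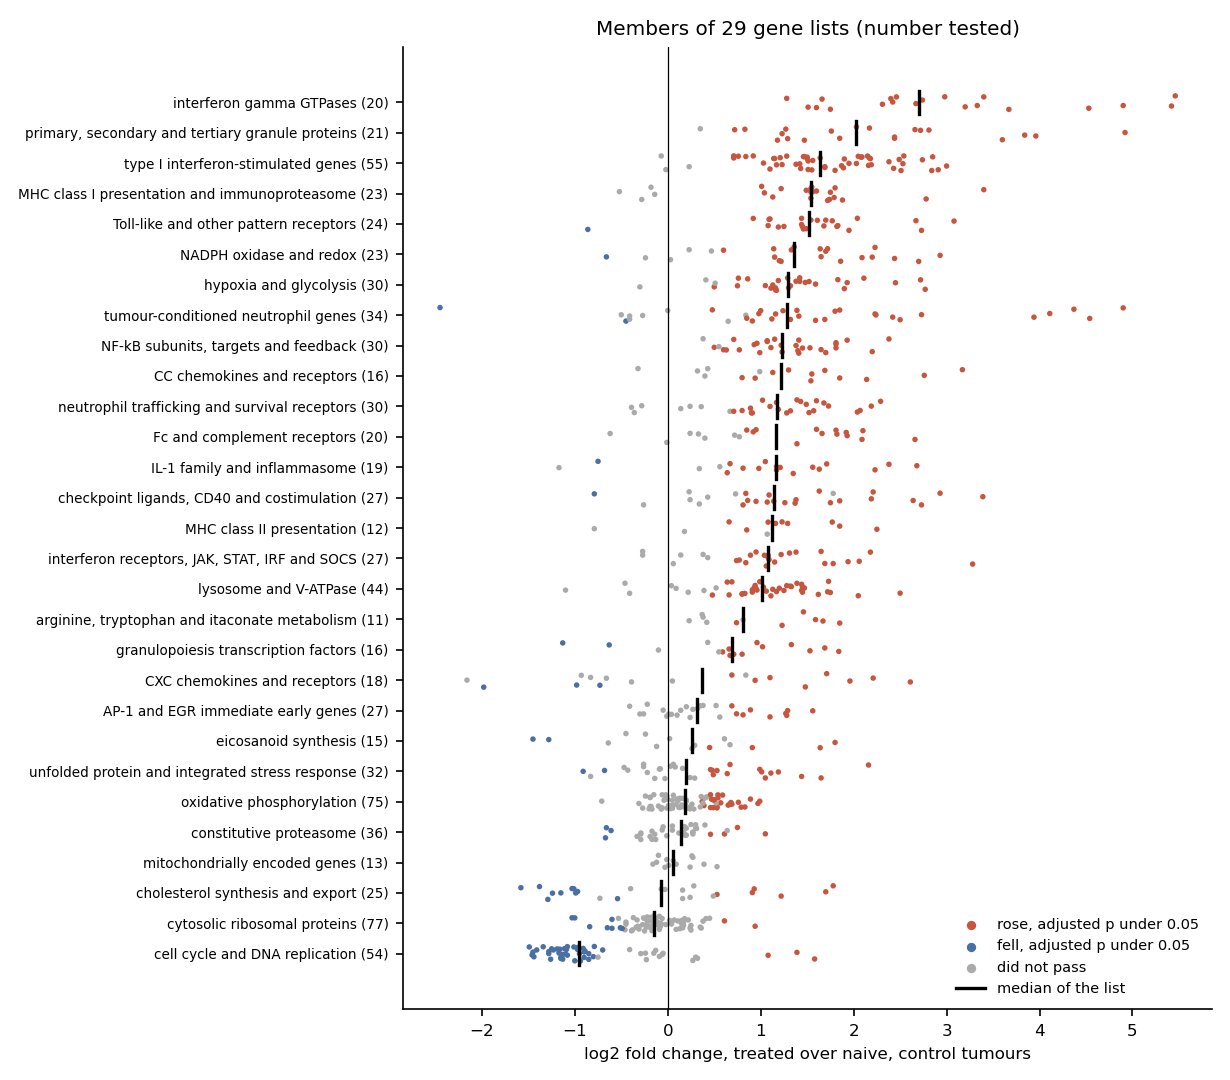
Log2 fold change of treated over naive control libraries (x axis) for the tested members of 29 pathway lists (rows, number tested in brackets), 1 point per gene, red where called higher, blue where called lower and grey where the test was not passed; black bars are list medians. Interferon gamma GTPases have the highest median, 2.70, and cell-cycle genes the lowest, −0.96.

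Whether the response depended on the graft was tested as an interaction, the response in Sox2Hi tumours minus that in control tumours. It was called for 2671 of 11274 genes (23.7%), 1644 with a higher and 1027 with a lower estimate in Sox2Hi tumours. This count rests on scaling and on single libraries: it was 6252 with the wider TMM set, 1305 with the background subtracted and 1334 without Sox2Hi treated library 1. Of the type I interferon-stimulated genes 0 of 55 were called by edgeR, with 7 at an unadjusted p under 0.05, 3 called by DESeq2 and 4 by limma-voom, and 37 with the wider TMM set. Their median response was 1.64 in control and 1.27 in Sox2Hi tumours. Of the interferon gamma GTPases 1 of 20 was called, Gbp6, which rose by 4.53 in control and 3.46 in Sox2Hi tumours (difference −1.07 ± 0.32, edgeR adjusted p = 0.033). The GTPase count was 14 with the wider TMM set, 3 by limma-voom, 2 by DESeq2 and 0 with library totals, tested-gene library sizes or the background subtracted. Gbp4 rose in Sox2Hi tumours from 112, 131 and 86.8 to 1855 and 2417 CPM, and its difference of −0.61 ± 0.39 did not pass.

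Interaction calls in other lists, against 23.7% of all genes, were 23 of 44 lysosome genes, 13 of 30 hypoxia and glycolysis genes and 14 of 34 tumour-conditioned genes, all lower in Sox2Hi tumours. Oxidative phosphorylation held 4 of 75, ribosomal proteins 0 of 77, pattern receptors 8 of 24 and NADPH oxidase genes 7 of 23, and differences between lists were not tested. When 1 library was left out these were 0 to 3, 0, 0 to 10 (0 without Sox2Hi treated library 2) and 1 to 11. With the wider TMM set they were 52, 28, 22 and 19, and with the background subtracted 1, 0, 0 and 0. Leaving out 1 library left 2 to 20 lysosome, 2 to 13 hypoxia and 3 to 10 tumour-conditioned calls. The lysosome count was 2 without Sox2Hi naive library 1, and the hypoxia count was 2 without Sox2Hi treated library 1, where the tumour-conditioned count was 3. Each of the 10 libraries except control naive 2, control treated 2 and Sox2Hi treated 2 took the lysosome count to 6 or fewer. The lysosome count was 28 by DESeq2 and 24 by limma-voom but 6 with library sizes from the tested genes alone, 3 with library totals and 2 with the background subtracted, the hypoxia count 20, 13, 9, 2 and 7 in the same order, and the tumour-conditioned count 19, 11, 5, 7 and 4. Over all genes the shares called in that order were 29.8%, 29.4%, 19.8%, 19.8% and 11.6%. With the wider TMM set, where 55.5% of all genes were called, the counts were 42 lysosome, 27 hypoxia and 28 tumour-conditioned genes. Ldha was at 239, 208 and 217 CPM in naive and 214 and 251 CPM in treated Sox2Hi libraries, a change of 0.07 against 1.17 in control tumours (difference −1.10 ± 0.27, edgeR adjusted p = 0.016). Car4 was at 13.2, 7.68 and 5.71 in naive and 9.06 and 15 CPM in treated Sox2Hi libraries, and its difference was the most negative of the named genes apart from an immunoglobulin chain (−3.67 ± 0.63, edgeR adjusted p = 0.0032). Tnf was at 106, 72.8 and 50.3 against 75.5 and 62.3 CPM in Sox2Hi libraries (difference −1.96 ± 0.42, edgeR adjusted p = 0.0081). The naive and treated groups overlapped in Sox2Hi tumours for these 3 genes, and in control tumours they did not. Among the 534 risers of control tumours 196 were called for the interaction and among the 117 fallers 72, all with a smaller response in Sox2Hi tumours; these genes were picked by the control response that enters the difference, so no support is drawn from the count.

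**Figure D5:**
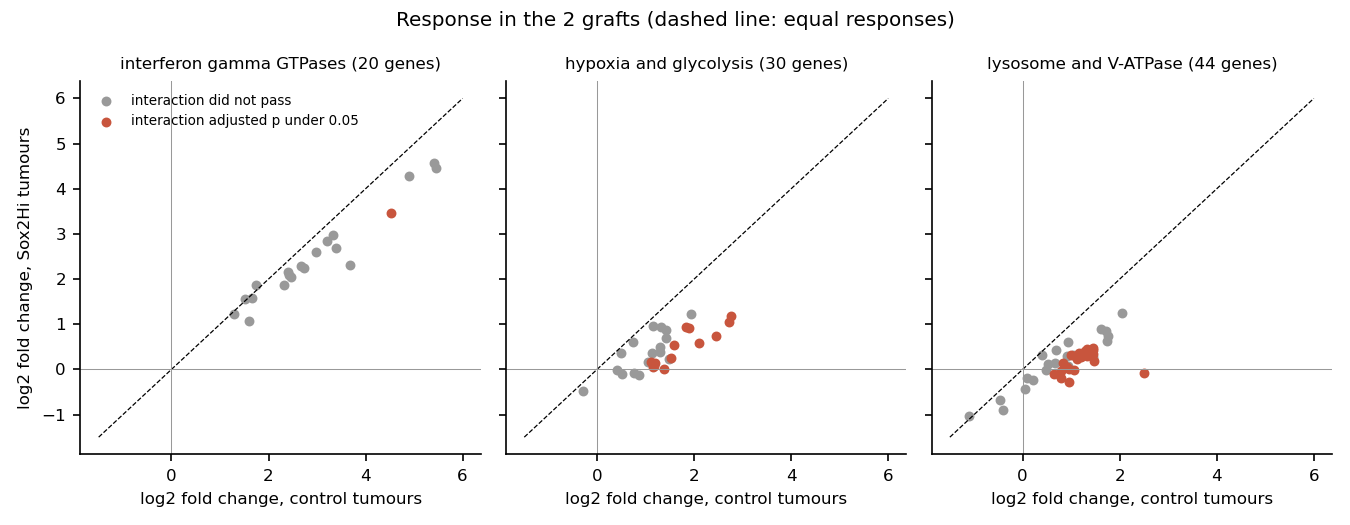
Log2 fold change of treated over naive in Sox2Hi tumours (y axis) against control tumours (x axis) for 3 gene lists, 1 point per gene, red where the interaction had an edgeR adjusted p under 0.05; the dashed line marks equal responses. Among the GTPases 1 of 20 is red, while 13 of 30 hypoxia and 23 of 44 lysosome genes are red and lie below the line; with the wider TMM set 14 GTPases would be red, and leaving out 1 library leaves as few as 2 hypoxia or 2 lysosome genes red.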

How the data were processed

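RNA was measured in 10 libraries of tumour neutrophils, 5 of them from control tumours. The deposited values are estimated counts per gene made by the authors, and the submitters' processing notes name kallisto 0.44.0 and the mm10 build. Estimated counts were used as deposited and were rounded only in the fit with the background subtracted. The 96 rows that are not Ensembl genes were left out of library sizes and tests. Genes averaging 5 CPM or more across the 10 libraries were fitted with edgeR 4.0.16 (quasi-likelihood, TMM factors from those genes, R 4.3.3) in 1 model with 4 groups. Calls used a Benjamini-Hochberg adjusted p under 0.05, and a second rule used glmTreat against a 2-fold change. Total gene counts of 13815734 to 22986193 per library set the precision, and the biological coefficient of variation shared by all genes was 0.213. The script was tested on simulated data. Alternatives used DESeq2 1.42.0, limma 3.58.1, other factors, filters and samples.

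Named genes were the 12 largest rises and falls averaging 20 CPM or more, without overlap between groups (no predicted, Rik or antigen receptor segment names), the lead genes of each list, each list's most changed members, and the 5 most positive and negative interactions. Other names were added after their values were seen. The gene groups and lists were chosen with earlier results of these data known. Deviations from the group means of same-numbered naive libraries correlated positively between the grafts in all 3 pairs (0.273, 0.324 and 0.474). Other same-numbered libraries did not, such as Sox2Hi naive and treated library 1 (−0.28) and treated library 1 of both grafts (−0.0956). Deviations within a group are tied to each other through its mean, so these values are not independent and do not establish pairing. Naive and treated control libraries share only 2 title numbers (0.164 and 0.153), too few to show pairing, and the block is given as an alternative. Some genes the naming rule covers are not reported here.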

Additional observations from a re-analysis of the deposited data

Results flagged for a closer look

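For 41 of the 181 named genes the response differed between grafts by the edgeR interaction term (adjusted p under 0.05), a share near the 23.7% of all genes. Many were named for a large control response or a large difference, so no support is drawn from the count. Values are the response in Sox2Hi minus that in control tumours, on the log2 scale. Among inflammatory and receptor genes the differences were −1.96 for Tnf, −1.65 for Ccl3, −1.41 for Il12a, −1.25 for Pdcd1lg2, −1.20 for Il1rn, −1.08 for Tnfaip3, −1.07 for Clec4e, −1.05 for Tlr4, −1.02 for Tlr2, −1.02 for Cxcl2 and −0.98 for Nfkbia. All 11 rose in control tumours. Among metabolic and lysosomal genes they were −3.67 for Car4, −2.57 for Atp6v0d2, −1.65 for Hmox1, −1.59 for Ankrd37, −1.23 for Lamp1, −1.10 for Ldha, −1.06 for Ctsb, −1.02 for Ctsd, −1.01 for Cycs and −0.94 for Slc2a1. Among stress and regulatory genes they were −1.71 for Cebpe, −1.20 for Ddit3, −1.13 for Hmgb2, −0.97 for Klf6, −0.94 for Atf4, −0.87 for Hspa5, −0.74 for Psmd8 and, in the other direction, 1.42 for Hyou1. Rab24, Ypel3 and Rab5if differed by −2.73, −2.34 and −2.38, Stfa2 by −1.68 and Gbp6 by −1.07.

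The genes with a positive difference besides Hyou1 were Cma1 (3.64), Vwf (1.35) and the odorant or pheromone receptors Olfr986 (2.36), Olfr639 (2.35), Vmn1r58 (2.15) and Olfr509 (2.13). Receptors of that kind were taken as silent when the expected background was estimated. Iglc2 differed by −12.36, with 354 CPM in treated control library 2 and 0.521 CPM in treated control library 1. Each kept its sign in every alternative that gave it an interaction estimate (35 of the 41 at a minimum of 20 CPM, and none from the 5 control libraries alone). The call held for 39 with RLE factors, 41 with DESeq2, 35 with limma-voom, 17 with library totals, 17 with the background subtracted, 6 of the 35 tested at a minimum of 20 CPM, and 15 to 29 when 1 library was left out.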

How the results depend on the processing

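All counts below are for control tumours, in genes called, unless the interaction is named. Leaving out each of the 10 libraries in turn gave 5070 to 6531 called, 2312 to 3181 higher and 2758 to 3610 lower, 379 to 782 changed by more than 2-fold, 275 to 631 higher and 73 to 326 lower by more than 2-fold, and 1334 to 2834 interactions. Library totals alone gave 1263 higher, 6238 lower, 2329 past 2-fold, 223 up and 2106 down. TMM factors from the wider set gave 1475 lower, 1585 past 2-fold, 1543 up, 42 down and 6252 interactions. A minimum of 1 CPM gave 10429 called, 5662 lower, 1211 past 2-fold, 1067 up and 7803 interactions. A minimum of 20 CPM gave 3120 called, 1533 higher, 1587 lower, 396 past 2-fold, 221 up and 397 interactions. Every gene with a count gave 13544 called, 10107 lower, 298 down by more than 2-fold and 8279 interactions; the filters change how many genes are tested. Library sizes from the tested genes alone, chosen after seeing the data, gave 226 down by more than 2-fold, and the 5 control libraries alone gave 77. Limma-voom gave 360 past 2-fold, 333 up and 27 down. Subtracting the background gave 1305 interactions. The cause of these shifts was not tested otherwise. With the replicate block by title number 6346 genes were called, 674 past 2-fold, 176 down by more than 2-fold and 3424 for the interaction; by the number in the description 5989, 643 and 2225. Description numbers of naive and treated control libraries correlated at −0.153 and −0.0566. Among named genes, Atp5b became −0.59, Cebpb −0.05 and Hspa5 −0.14 with library totals, and Iglc2 ranged from −0.79 without treated control library 2 to 8.68 without treated control library 1. Of the other named-gene values under an alternative, 3965 kept direction and side of the threshold, 58 newly passed and 120 no longer passed. Calls were lost in 5 alternatives for Cpa3, H2-Aa and Hmgcs1, in 4 for Alox15 and Tgfb1, in 3 for Cxcr2, Hba-a2, Psmd5 and Sod1, in 2 for Cd74, Hba-a1, Hbb-bs, Igha, Iglc2, Klf5, Lamp1 and Ptgs2, and in 1 for 14 others, among them Cd86, Cebpe and Aurkb (without treated control library 2), Il1b, Mcl1 and Slc2a1 (library totals) and Tlr3 (wider TMM set).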

Other observations

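Some genes that changed by more than 2-fold belonged to none of the lists and were chosen here after their values were seen. Il1f6 and Il1f9, IL-36 cytokines of the IL-1 family, rose by 4.11 ± 0.45 and 2.62 ± 0.32 on the log2 scale (SE). Il1f6 was at 2.71, 2.28 and 1.47 CPM in naive and 30.4 and 43.6 CPM in treated libraries, and Il1f9 at 367, 323 and 239 against 2018 and 1790 CPM. Il23a, a subunit of IL-23, went from 81.9, 64 and 60.6 to 178 and 271 CPM, and its response differed in Sox2Hi tumours by −2.19 (edgeR adjusted p = 0.0024). Il2rg, the shared receptor chain of several interleukins, went from 267, 338 and 215 to 1996 and 1906 CPM.

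Some risers, also chosen after their values were seen, have roles in handling iron, with no count or test of such genes as a group. Lcn2 among them is also one of the neutrophil markers above. Fth1 and Ftl1, the ferritin chains, rose by 2.04 ± 0.29 and 1.73 ± 0.25. Slc40a1, the iron exporter, went from 25.9, 34.5 and 21.2 to 139 and 74.6 CPM, Lcn2, which binds bacterial siderophores, from 12.5, 13.4 and 9.65 to 75.3 and 53.4 CPM, and Steap4, a metalloreductase, from 56.2, 43.2 and 35.3 to 485 and 280 CPM. Among fallers, Timp1, an inhibitor of matrix proteases, went from 44.5, 26.1 and 53.4 to 12.6 and 11.5 CPM, and Bdnf, a neurotrophin, from 16.6, 12.3 and 18.9 to 3.57 and 4.44 CPM.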
